A study of Mus musculus with 6 samples.

Results

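The genes followed here are 10 that build or cross-link elastic fibers, *Eln*, *Fbn1*, *Fbln1*, *Fbln2*, *Mfap4*, *Mfap5*, *Emilin1*, *Lox*, *Loxl1* and *Loxl2*, chosen by name and all present among the 17149 genes with a transcript in the kept cells. They were measured by plate-based single-cell RNA sequencing (SORT-seq) of stromal cells sorted from colon tumors of 6 mice, 1 plate of 384 wells per mouse. The mice carried conditional *Zeb1* alleles. The 3 FibΔZeb1 mice also carried the Col6a1-Cre transgene, which is active in fibroblasts of the intestine but not in every one of them, and the 3 FibCtrl mice were Cre-negative littermates. Tumors had been induced in both groups with azoxymethane and dextran sulfate sodium (AOM/DSS), and the mice were age-matched littermates of both sexes. The sort took viable cells lacking EPCAM, CD45 and CD31. Mice are called by their plate, with 1, 3 and 4 for FibCtrl and 2, 5 and 6 for FibΔZeb1, and mouse 6 came from a different sequencing run.

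Elastic fibers give tissue its recoil. Elastin, made as soluble tropoelastin, is deposited on a scaffold of fibrillin microfibrils, where fibulins, microfibril-associated proteins and EMILIN1 help it to assemble, and enzymes of the lysyl oxidase family then join the chains by oxidizing lysine residues. Fibroblasts and vascular mural cells are the usual makers of these proteins, and stiff, cross-linked matrix is a known trait of the stroma of colon tumors.

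Promoter sequence was at hand for 4 members, *Fbn1*, *Fbln1*, *Fbln2* and *Emilin1* (RefSeq, GRCm38.p6). Those of *Fbn1* (chr2:125506439-125506688, minus strand) and *Fbln2* (chr6:91212514-91212763, plus strand) are shown because these genes of the same microfibril scaffold lay furthest apart in pericyte-like cells, as given further on. Each is the 250 bases before the start of the gene in RefSeq, read 5′ to 3′ in the direction of transcription. GENCODE, from which the gene positions given further on come, has transcripts of both genes that start further upstream, so both windows lie inside its gene bounds. Capitals mark the GC box (GGGCGG or, on the other strand, CCGCCC).
Fbn1: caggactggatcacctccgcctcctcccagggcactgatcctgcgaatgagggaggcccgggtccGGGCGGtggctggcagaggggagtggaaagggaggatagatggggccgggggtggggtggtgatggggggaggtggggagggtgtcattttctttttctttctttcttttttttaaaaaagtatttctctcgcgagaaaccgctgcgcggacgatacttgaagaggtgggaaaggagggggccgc
Fbln2: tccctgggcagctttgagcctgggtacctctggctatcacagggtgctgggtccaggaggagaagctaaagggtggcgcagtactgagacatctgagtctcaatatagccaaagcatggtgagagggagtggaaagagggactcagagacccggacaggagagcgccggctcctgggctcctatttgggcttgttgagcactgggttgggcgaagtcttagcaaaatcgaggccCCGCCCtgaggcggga
Among 32851 RefSeq windows of this length, 32.7% held the GC box on either strand, as did 3 of the 4 members. The E2-box to which ZEB1-type factors bind (CACCTG or CAGGTG) was in 17.2% of windows and in 0 of the 4, and the SMAD box (CAGACA or TGTCTG) was in 17.1% and in *Emilin1* and *Fbln1*. No motif searched contains another, and the matches describe only the letters of these windows.

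After wells with 100 to 6000 genes and under 10% mitochondrial transcripts were taken, and wells with more than 1 *Ptprc* (CD45) or *Epcam* transcript left out, 928 cells remained, between 46 (mouse 6) and 260 (mouse 2) per mouse. The plates held 1575726 to 3699058 transcripts, and the median per kept cell ran from 1178 transcripts in mouse 3 to 12100 in mouse 2. All plates use the same 384 well barcodes, so a shared barcode does not mark a shared cell. Cells were put in classes by marker lists that held no member. Inflammatory cancer-associated fibroblasts (iCAFs) are known for secreted cytokines, telocytes are fibroblasts that lie beneath the epithelium and send it niche signals, and pericytes wrap small vessels. The classes used here are 150 iCAF-like cells (led by *Ptx3*, *Pi16*, *Pcolce2* and *Il33*), 140 *Cxcl13*/*Grem1* fibroblasts, 116 telocyte-like cells (led by *Mmp10*, *Il1rl1* and *Mmp13*), 45 *Myoc*/*Angptl7* fibroblasts, of which 40 came from mouse 5, and 83 pericyte-like cells. The first 4 together are the 451 fibroblast-like cells. A further 200 cells were neutrophil-like, although the sort was gated against CD45, and 42 cells of a smooth muscle gate were led by the skeletal muscle genes *Acta1*, *Ckm* and *Tnnc2* and were left unnamed.

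The summed pericyte markers came to 5773 to 8997 CPM (transcripts scaled to 1e+06 per sum) in pericyte-like cells of each mouse and to 105 to 193 CPM in fibroblast-like cells. The summed fibroblast markers came to 37840 to 51880 CPM in fibroblast-like and 6133 to 24320 CPM in pericyte-like cells. Both marker lists were used in the gate, so these differences were set by it and do not test the classes. Mice 6 and 3, which gave the ends of the pericyte marker range, had 3 pericyte-like cells each. In fibroblast-like cells the epithelial markers summed to 4.8 to 311 CPM and the neutrophil markers to 55.8 to 445 CPM, the latter highest in mouse 3, and their part in the results was not tested. Neutrophil-like cells, which should lack elastic fiber transcripts, were taken as a guide to free RNA, though other sources were not tested. There the members stood between 4.57 CPM (*Fbln2* and *Lox*) and 73.1 CPM (*Eln*), at a median of 940 transcripts per cell against 10750 to 15100 in the classes used. These levels rest on few transcripts. Mouse 2 gave 10 of those of *Eln*, and without it the *Eln* level was 35.2 CPM. In mouse 2 itself *Eln* stood at 207 CPM in neutrophil-like and 47.9 CPM in pericyte-like cells. The neutrophil-like CPM is thus not a level common to all classes.

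Pericyte-like and fibroblast-like cells differed in 8 of the 10 genes. All 8 were lower in pericyte-like cells and 0 were higher, against 9.94% of all genes tested called lower and 7.2% called higher (17.1% in either direction; edgeR, mouse as a block, adjusted p under 0.05). The 2 that were not called were *Fbn1*, which encodes fibrillin-1, the main strand of the microfibril, and *Loxl2*, a lysyl oxidase also known for its action on basement membrane collagen IV. The median log2 fold change of the members was -3.43, and that of all genes -0.05. The pericyte-like sums came from mice 1, 2 and 4, which had at least 10 such cells (21, 39 and 12).

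*Eln* (tropoelastin, chr5:134702593-134747323) stood at 60.9, 47.9 and 51.2 CPM in the pericyte-like cells of mice 1, 2 and 4, and at 669, 632 and 424 CPM in their fibroblast-like cells. The groups did not overlap, and the log2 fold change was -3.62 ± 0.35 (SE; edgeR adjusted p = 1.25e-15). An *Eln* transcript was found in 45.8% of pericyte-like and 7% of neutrophil-like cells. It was found in 8.75% and 3.33% when cells were thinned to 1000 barcodes. Thinning left out cells with fewer barcodes, 3 of 83 pericyte-like and 110 of 200 neutrophil-like cells. *Fbn1* (chr2:125300594-125507993) stood at 442, 700 and 535 CPM in pericyte-like cells, against 729, 686 and 507 CPM in fibroblast-like cells of the same mice. It was higher in pericyte-like cells of mice 2 and 4 and lower in mouse 1, with a log2 fold change of -0.35 ± 0.28 (edgeR adjusted p = 0.522). A *Fbn1* transcript was found in 88.0% of pericyte-like cells and in 3.5% of neutrophil-like cells. Among the cells that could be thinned to 1000 barcodes it was found in 37.5% and in 0 of 90.

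The fibulins, glycoproteins that bridge elastin and microfibrils, were both lower in pericyte-like cells. *Fbln2* (chr6:91212455-91272540) stood at 30.5, 7.09 and 0 CPM there, the last below the 21.9 CPM that 3 transcripts would give in mouse 4, and at 531, 489 and 335 CPM in fibroblast-like cells. Its log2 fold change of -5.65 ± 0.45 was the largest of the 10 (edgeR adjusted p = 5.44e-20). *Fbln1* (chr15:85205949-85286535) stood at 122, 17.7 and 0 CPM, and all of the 16.0 transcripts behind the value of mouse 1 lay in 1 of its 21 pericyte-like cells. The log2 fold change was -4.05 ± 0.39 (edgeR adjusted p = 1.25e-15).

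Of the smaller microfibril proteins, *Mfap4* (chr11:61485431-61488900) stood at 22.9, 8.86 and 7.31 CPM in pericyte-like cells and *Mfap5* (chr6:122505845-122529290), whose product binds fibrillin, at 38.1, 7.09 and 0 CPM. Thinned to 1000 barcodes, each was found in 2.5% of pericyte-like cells and in 2.22% of neutrophil-like cells. The log2 fold changes were -3.94 ± 0.42 for *Mfap4* and -4.21 ± 0.44 for *Mfap5* (edgeR adjusted p = 2.13e-13 and 4.55e-14). The pericyte-like cells of mouse 4 held 1 *Mfap4* and 0 *Mfap5* transcripts, below the 21.94 CPM that 3 transcripts would give. *Emilin1* (chr5:30913402-30921277), the elastin-microfibril interface protein, stood at 68.5, 17.7 and 36.6 CPM, with a log2 fold change of -3.25 ± 0.36 (edgeR adjusted p = 8.09e-13).

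The cross-linking enzymes did not move as one. *Loxl2* (chr14:69609068-69695834) stood at 503, 908 and 439 CPM in pericyte-like cells and at 517, 724 and 584 CPM in the fibroblast-like cells of the same mice. The ranges overlapped, and the log2 fold change was -0.18 ± 0.28 (edgeR adjusted p = 0.795). *Loxl1* (chr9:58287738-58313186), the family member tied to elastin deposition, stood at 83.8, 53.2 and 36.6 CPM in pericyte-like cells, lower by a log2 fold change of -3.11 ± 0.33 (edgeR adjusted p = 2.10e-13). *Lox* (chr18:52516067-52529867), the first known of the family, was low throughout, at 7.62, 8.86 and 14.6 CPM in pericyte-like cells and differed by -2.51 ± 0.47 (edgeR adjusted p = 9.81e-06). The pericyte-like values held 1, 5 and 2 transcripts. Those of mice 1 and 4 lay below the 22.85 and 21.94 CPM that 3 transcripts would give.

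**Figure D1:**
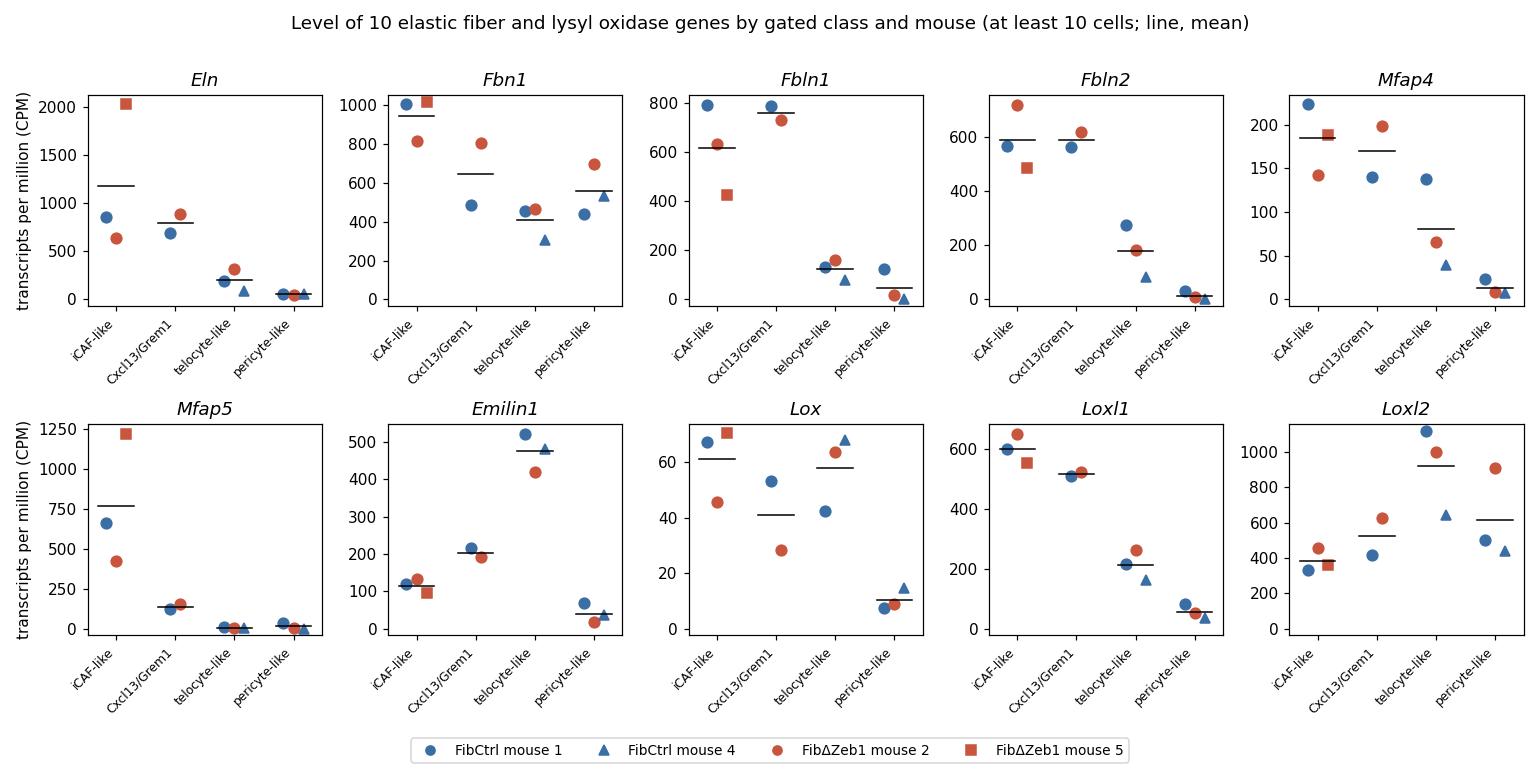
Level of each member (CPM of the summed transcripts) in each class. Each point is 1 mouse with at least 10 cells of the class, colored by genotype, and lines are means. In pericyte-like cells *Fbn1* and *Loxl2* stand at 442 to 700 and 439 to 908 CPM. Of the classes shown, *Mfap5* is highest in iCAF-like cells (422 to 1217 CPM). Among the fibroblasts shown, *Loxl2* and *Emilin1* are highest in telocyte-like cells (642 to 1116 and 420 to 522 CPM).

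The fibroblast subtypes were then compared with each other. Each was set against the mean of the other two in 1 fit of 8 sums, iCAF-like cells of mice 1, 2 and 5, *Cxcl13*/*Grem1* fibroblasts of mice 1 and 2, and telocyte-like cells of mice 1, 2 and 4. With the mouse as a block, only mice 1 and 2 held more than 1 class, so these contrasts rest on 1 FibCtrl and 1 FibΔZeb1 mouse with 2 residual degrees of freedom, and the 3 contrasts sum to 0. Of the members, 8 were called for iCAF-like cells (6 higher and 2 lower; 13.7% of all genes called, 8.22% higher and 5.48% lower), 1 for *Cxcl13*/*Grem1* fibroblasts (higher; 2.67% of all genes called, 2.07% higher and 0.597% lower), and 9 for telocyte-like cells (2 higher and 7 lower; 13.1% of all genes called, 6.24% higher and 6.83% lower). The median log2 fold changes of the members were 0.96, 0.38 and -1.23, against -0.02, 0.03 and 0.01 for all genes. A setting with at least 5 cells in place of 10, chosen after the data were seen, took in all 6 mice and 7 residual degrees of freedom. In it 8, 1 and 8 members were called. The share of all genes called was not taken, so these counts have no background to be read against.

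*Mfap5* separated the subtypes by the widest margin of the members. It stood at 662, 422 and 1217 CPM in iCAF-like cells of mice 1, 2 and 5, at 122 and 153 CPM in *Cxcl13*/*Grem1* fibroblasts of mice 1 and 2, and at 9.14, 8.32 and 2.43 CPM in telocyte-like cells of mice 1, 2 and 4. The 3 classes did not overlap, and the telocyte-like sums held few transcripts, with 9.14, 4.16 and 7.28 CPM being the level of 3 transcripts. The *Myoc*/*Angptl7* fibroblasts of mouse 5 (40 cells), which are outside these contrasts, held *Mfap5* at 476.5 CPM, within the range of iCAF-like cells. The log2 fold change was 4.11 ± 0.27 for iCAF-like cells (edgeR adjusted p = 4.64e-07) and -5.07 ± 0.39 for telocyte-like cells (edgeR adjusted p = 1.84e-06). Among mice with at least 5 cells of each class, iCAF-like cells were above *Cxcl13*/*Grem1* fibroblasts in 4 of 4 and above telocyte-like cells in 5 of 5. A *Mfap5* transcript was found in 91.3% of iCAF-like, 52.1% of *Cxcl13*/*Grem1* and 6.90% of telocyte-like cells, against 2% of neutrophil-like cells. When thinned to 1000 barcodes the shares were 44.7%, 15.0%, 0.862% and 2.22%, in that order.

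*Eln* and *Fbn1* were lower in telocyte-like cells. *Eln* stood at 852, 642 and 2025 CPM in iCAF-like cells, at 694 and 889 CPM in *Cxcl13*/*Grem1* fibroblasts and at 186, 319 and 89.9 CPM in telocyte-like cells. All telocyte-like values lay below those of both other classes, with a log2 fold change of -1.76 ± 0.26 (edgeR adjusted p = 0.000421), while the other classes overlapped. For iCAF-like cells the *Eln* log2 fold change was 0.96 ± 0.24 (edgeR adjusted p = 0.0146), a call that was lost with DESeq2, with thinned cells, and with the mitochondrial limit taken over genes named mt- alone (adjusted p = 0.0524, 0.386 and 0.0668). *Fbn1* stood at 1006, 817 and 1017 CPM in iCAF-like cells, at 486 and 804 CPM in *Cxcl13*/*Grem1* fibroblasts and at 455, 464 and 304 CPM in telocyte-like cells. It differed by a log2 fold change of 0.95 ± 0.22 for iCAF-like and -0.90 ± 0.23 for telocyte-like cells (edgeR adjusted p = 0.0095 and 0.020). The telocyte-like call was lost with DESeq2 and with thinned cells (adjusted p = 0.0783 and 0.288), and the iCAF-like call with thinned cells (0.286).

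Both fibulins were lowest in telocyte-like cells. *Fbln1* stood at 795, 635 and 426 CPM in iCAF-like cells, at 792 and 734 CPM in *Cxcl13*/*Grem1* fibroblasts and at 131, 159 and 77.7 CPM in telocyte-like cells. It was the member called in all 3 contrasts, with log2 fold changes of 1.27 ± 0.20, 1.20 ± 0.19 and -2.47 ± 0.23 (edgeR adjusted p = 0.000593, 0.00431 and 1.11e-05). *Fbln2* stood at 566, 720 and 486 CPM in iCAF-like cells, at 563 and 618 CPM in *Cxcl13*/*Grem1* fibroblasts and at 275, 182 and 82.6 CPM in telocyte-like cells. Telocyte-like cells lay apart from the other classes for both genes, and *Fbln2* differed there by -1.62 ± 0.23 and in iCAF-like cells by 1.0 ± 0.20 (edgeR adjusted p = 0.000249 and 0.0039). *Mfap4* had the weakest call of the fiber genes, with 223, 142 and 188 CPM in iCAF-like, 140 and 198 CPM in *Cxcl13*/*Grem1* and 137, 65.2 and 38.9 CPM in telocyte-like cells. Its telocyte-like log2 fold change was -1.07 ± 0.30 (edgeR adjusted p = 0.0289) and passed in 12 of 21 alternatives, and its iCAF-like change was 0.69 ± 0.27 (edgeR adjusted p = 0.121).

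*Emilin1* and *Loxl2* ran the other way. *Emilin1* stood at 119, 133 and 96.0 CPM in iCAF-like cells, at 216 and 192 CPM in *Cxcl13*/*Grem1* fibroblasts and at 522, 420 and 481 CPM in telocyte-like cells, with no overlap between classes. The log2 fold change was -1.12 ± 0.21 for iCAF-like and 1.39 ± 0.18 for telocyte-like cells (edgeR adjusted p = 0.0022 and 0.000173). *Loxl2* stood at 334, 458 and 359 CPM, at 419 and 627 CPM and at 1116, 1001 and 642 CPM in the same order of classes. Telocyte-like cells were the highest, above iCAF-like cells in 5 of 5 mice and above *Cxcl13*/*Grem1* fibroblasts in 4 of 4 with at least 5 cells of each, as *Emilin1* was too. The *Loxl2* log2 fold change was -0.74 ± 0.20 for iCAF-like and 1.08 ± 0.19 for telocyte-like cells (edgeR adjusted p = 0.0257 and 0.00144). The iCAF-like call was lost with DESeq2, with *Ptprc* and *Epcam* wells kept, and without the mouse as a replicate block (adjusted p = 0.138, 0.0797 and 0.0571).

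The remaining lysyl oxidases differed from *Loxl2* and from each other. *Loxl1* stood at 599, 652 and 555 CPM in iCAF-like cells, at 509 and 522 CPM in *Cxcl13*/*Grem1* fibroblasts and at 216, 262 and 163 CPM in telocyte-like cells. It was higher in iCAF-like cells by a log2 fold change of 1.01 ± 0.18 and lower in telocyte-like cells by -1.40 ± 0.20 (edgeR adjusted p = 0.00182 and 0.000325). *Lox* stood at 67.3, 45.8 and 70.5 CPM, at 53.4 and 28.3 CPM and at 42.7, 63.8 and 68.0 CPM in the same order. The classes overlapped, and its log2 fold changes of 0.43 ± 0.31, -0.56 ± 0.31 and 0.13 ± 0.32 were not called (edgeR adjusted p = 0.439, 0.535 and 0.872).

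**Figure D2:**
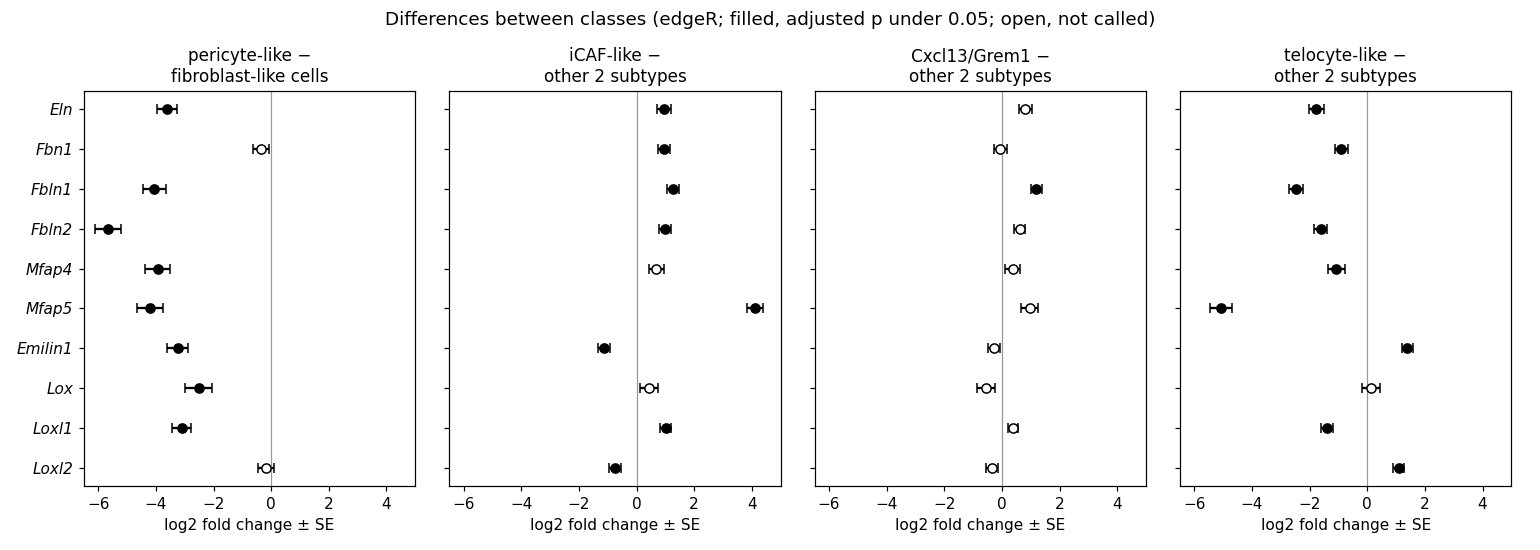
Log2 fold change of each member in 4 class contrasts, with bars of 1 SE. Filled points passed an edgeR adjusted p of 0.05. *Emilin1* and *Loxl2* lie to the right for telocyte-like cells (1.39 and 1.08), where *Mfap5* lies furthest to the left (-5.07), and *Fbn1* and *Loxl2* are open in the pericyte contrast (-0.35 and -0.18).

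Set directly against each other in the same fit, a contrast added after the data were seen, iCAF-like cells and *Cxcl13*/*Grem1* fibroblasts differed in 1 of the 10 members, *Mfap5*, against 6.31% of all genes called (3.2% called higher and 3.11% lower). *Mfap5* was higher in iCAF-like cells by a log2 fold change of 2.095 ± 0.27 (edgeR adjusted p = 0.000386; 0.0642 with thinned cells), and the median over the members was 0.23. *Eln* differed by 0.10 ± 0.27 (edgeR adjusted p = 0.904). In *Cxcl13*/*Grem1* fibroblasts against the mean of the others, *Eln* and *Mfap5* came to 0.81 ± 0.23 and 0.96 ± 0.30 without passing the test (edgeR adjusted p = 0.104 and 0.153), and *Fbn1*, *Loxl1*, *Loxl2*, *Mfap4*, *Emilin1* and *Fbln2* lay between -0.34 and 0.62.

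*Eln* was spread over cells in a different way in these classes. In iCAF-like cells the median was 3 transcripts per cell and the highest 467, and the 5 highest of the 150 cells held 54.8% of the class's *Eln*. In *Cxcl13*/*Grem1* fibroblasts every cell held at least 1 transcript, with a median of 8.01 and a highest value of 68.6, and the 5 highest of 140 cells held 15.1%. The concentration was strongest in mouse 5, where the 5 highest of 51 iCAF-like cells held 91.1% and the median cell 1 transcript. The single highest cell there held 467 *Eln* transcripts and the next 407, and both carried all 8 fibroblast markers. The 2025 CPM of mouse 5, above the 852 and 642 CPM of mice 1 and 2, thus came mostly from these few cells. In mice 1 and 2 the 5 highest iCAF-like cells held 57.9% and 53.1% of the *Eln* transcripts, against 30.7% and 26.0% in their *Cxcl13*/*Grem1* fibroblasts.

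The share of cells with *Eln* was highest in *Cxcl13*/*Grem1* fibroblasts. An *Eln* transcript was found in 86.0% of iCAF-like and 100% of *Cxcl13*/*Grem1* cells, and in 61.2% of telocyte-like, 45.8% of pericyte-like and 7% of neutrophil-like cells. Thinned to 1000 barcodes, the shares were 36.0%, 50.7%, 21.6%, 8.75% and 3.33%. In mouse 1 the thinned shares were 30.5% in iCAF-like and 50.0% in *Cxcl13*/*Grem1* cells, while in mouse 2 they were 46.4% and 49.2%. These shares pool the cells of several mice and carry no test.

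**Figure D3:**
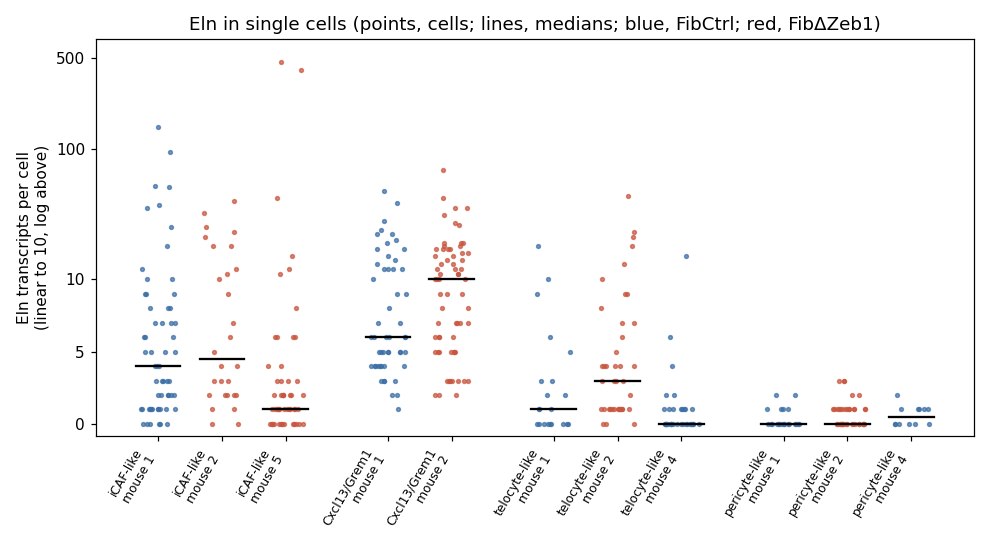
*Eln* transcripts in single cells (axis linear to 10 and logarithmic above) by class and mouse, for mice with at least 10 cells of the class. Points are cells and lines are medians. The 2 iCAF-like cells of mouse 5 at 467 and 407 transcripts stand above all others, and no *Cxcl13*/*Grem1* cell is at 0.

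Many of the members were often seen in the same fibroblast. The number that each gene's own share of cells and the depth would give was not worked out. The median number of the 10 genes with a transcript was 8 in iCAF-like and in *Cxcl13*/*Grem1* cells, 6 in telocyte-like, 3 in pericyte-like and 0 in neutrophil-like cells. At least 8 of the 10 were seen in 63.3% of iCAF-like, 69.3% of *Cxcl13*/*Grem1* and 28.4% of telocyte-like cells, and in 0 of 83 pericyte-like cells, whose median depth of 10750 transcripts was close to the 11680 of iCAF-like cells. *Emilin1* was found in 96.6% of telocyte-like, 61.3% of iCAF-like and 22.9% of pericyte-like cells (30.2%, 13.3% and 6.25% thinned, against 4.44% of neutrophil-like cells). *Loxl2* was found in 99.1%, 81.3% and 84.3% of the same classes (58.6%, 22.0% and 41.3% thinned, against 3.33% of neutrophil-like cells).

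Patterns were compared over 22 sums of mouse and class, which took in 5 neutrophil-like, 2 epithelial and 3 smooth muscle gate sums. The part that the contrast of stromal with other cells had in the correlations was not tested. Log2 CPM of the members correlated with each other at a Pearson's r from 0.297 (*Mfap5* with *Emilin1*) to 0.878 (*Fbln1* with *Fbln2*). Among 9186 genes, those whose pattern was most like *Eln* were *Serpina3n* (r = 0.924), *Nsg1* (0.883) and *Tnxb* (0.878), and those most like *Lox* were *Dab2* (0.957), *5430435G22Rik* (0.915) and *Coro2b* (0.888). These correlations are descriptions over sums of separate cells that share mice and depth.

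Other genes of the same pathway were taken from 3 lists. Of 22 further elastic fiber genes 17 were tested, and in pericyte-like cells 1 was higher, 12 were lower and 4 were not called, with a median log2 fold change of -1.67. *Efemp1* (fibulin-3) stood at 0, 1.77 and 0 CPM in pericyte-like cells of mice 1, 2 and 4 and at 385 to 621 CPM in the fibroblast-like cells of the 6 mice. *Tnxb* (tenascin-X) stood at 0, 3.55 and 7.32 CPM there and at 83.2 to 292 CPM in fibroblast-like cells (edgeR adjusted p = 1.42e-22 and 2.97e-18 for *Efemp1* and *Tnxb*). *Fbln5*, a fibulin needed for elastic fiber assembly, stood at 15.2, 0 and 7.32 CPM, or 3 transcripts in all. Among the subtypes 5 of the 17 were higher and 1 lower in iCAF-like cells, 2 higher in *Cxcl13*/*Grem1* fibroblasts, and 3 higher and 5 lower in telocyte-like cells, with medians of 0.04, 0.51 and -0.09.

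*Fbn2*, the fibrillin of developing tissue, was a gene of telocyte-like cells. It stood at 64.0, 29.1 and 46.1 CPM in telocyte-like cells of mice 1, 2 and 4, at 1.29, 0 and 0 CPM in iCAF-like cells and at 1.34 and 0 CPM in *Cxcl13*/*Grem1* fibroblasts. The classes did not overlap (edgeR adjusted p = 9.97e-05), and all 3 pericyte-like sums were at 0. *Emilin2* ran against *Emilin1*, at 193, 217 and 200 CPM in iCAF-like and 6.09, 31.9 and 12.1 CPM in telocyte-like cells. Its log2 fold changes were 2.22 ± 0.27 and -2.91 ± 0.35 (edgeR adjusted p = 8.53e-05 and 7.99e-05). *Tnxb* and *Adamtsl4* were likewise higher in iCAF-like (1.78 and 1.35) and lower in telocyte-like cells (-2.66 and -2.30).

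Of 9 further cross-linking and maturation genes, all tested, 1 was higher and 3 were lower in pericyte-like cells, with a median of -0.29. *Tgm2*, a transglutaminase, stood at 60.9, 49.6 and 43.9 CPM in pericyte-like and 276 to 596 CPM in fibroblast-like cells (log2 fold change -3.33 ± 0.34, edgeR adjusted p = 1.69e-14). *Plod2*, a lysyl hydroxylase that prepares collagen for cross-linking, differed there by -2.61 ± 0.35, and *Atp7a*, which carries copper to the lysyl oxidases, was the gene that was higher (1.59 ± 0.31). Among the subtypes *Plod2* was higher in iCAF-like cells, at 362, 381 and 167 CPM, than in telocyte-like cells, at 146, 158 and 131 CPM. Its log2 fold changes were 1.29 ± 0.18 and -0.96 ± 0.20 (edgeR adjusted p = 0.000338 and 0.00605). *Tgm2* was lower in iCAF-like cells by -0.89 ± 0.27, and 0 of the 9 were called in *Cxcl13*/*Grem1* fibroblasts.

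Of 10 genes for elastin-degrading proteases and the inhibitor *Serpine2*, 7 were tested. In pericyte-like cells 4 were lower and 1 was higher, with a median of -1.61. *Mmp2* (gelatinase A) stood at 343, 161 and 190 CPM in pericyte-like and 1345 to 2025 CPM in fibroblast-like cells (log2 fold change -3.27 ± 0.32, edgeR adjusted p = 1.53e-15), and *Serpine2* was the gene that was higher (0.91 ± 0.29). In telocyte-like cells *Mmp9* (gelatinase B) was higher, at 189, 15.2 and 400 CPM in mice 1, 2 and 4 (log2 fold change 5.32 ± 0.47, edgeR adjusted p = 6.00e-06), and *Ctsk* (cathepsin K) was lower (-1.63 ± 0.21). *Serpine2* was lower in iCAF-like cells (-2.12 ± 0.30) and higher in *Cxcl13*/*Grem1* fibroblasts (1.40 ± 0.25), where *Ctsk* was higher (0.93 ± 0.18) and *Mmp9*, at 1.34 and 1.09 CPM or 1 transcript in each sum, was called lower.

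For the genotype comparison, *Zeb1*, the targeted gene, was examined first. It stood at 116, 112 and 98.3 CPM in fibroblast-like cells of FibCtrl mice 1, 3 and 4 and at 57.3, 71.7 and 70.1 CPM in those of FibΔZeb1 mice 2, 5 and 6. The groups did not overlap (109 ± 9.53 against 66.3 ± 7.86 CPM, SD, n = 3 each; exact two-sided permutation p = 0.1, the smallest that 3 against 3 allows). The transcript was lower but still present, and the method counts the 3′ ends of transcripts, which need not lie in the deleted part. In the fit across all genes the log2 fold change was -0.71 ± 0.23 (edgeR adjusted p = 0.9995).

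Of the 10 members, 0 were called between genotypes in fibroblast-like cells. Across all genes 0% of 8336 were called by edgeR, with 122 genes and 0 members at an unadjusted p under 0.05, and DESeq2 called 2 genes and had 76 and 0 at that level. The log2 fold changes of the members ran from -0.46 ± 0.31 (*Emilin1*) to 0.79 ± 0.72 (*Mfap5*), with a median of 0.10 against 0.00 for all genes. The ranges of the genotypes overlapped for all 10 members, while 6.26% of all genes did not overlap. The exact two-sided permutation p lay between 0.3 and 1. In all kept cells 0 of the 10 were called (0% of 9747 genes; 106 at an unadjusted p under 0.05, and 0 called and 80 with DESeq2), and again the ranges of all 10 overlapped, against 5.82% of genes without overlap.

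*Eln* had the largest difference of means in CPM. It stood at 669, 365 and 424 CPM in FibCtrl and at 632, 1229 and 505 CPM in FibΔZeb1 mice (486 ± 161 against 789 ± 387, SD, n = 3 each). The groups overlapped, mouse 5 stood above the others, and the log2 fold change of 0.72 ± 0.41 fell to 0.19 without mouse 5. *Mfap5* stood at 333, 162 and 138 CPM in FibCtrl and at 158, 786 and 118 CPM in FibΔZeb1 mice (211 ± 106 against 354 ± 375). Here too mouse 5 was the highest and the others overlapped, and the log2 fold change turned from 0.79 to -0.66 without mouse 5. *Emilin1* stood at 226, 266 and 436 CPM in FibCtrl and at 258, 139 and 272 CPM in FibΔZeb1 mice, with mouse 5 the lowest. *Lox* stood at 56.9, 94.5 and 72.1 CPM and at 43.8, 87.5 and 198 CPM, where mouse 6, with 13 fibroblast-like cells, was the highest.

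For 5 of the other 6 members the means differed by less than the larger SD, and *Mfap4* was the exception (by 65.7 CPM). The means were 574 ± 135 against 619 ± 122 CPM for *Fbn1*, 447 ± 201 against 434 ± 75.0 for *Fbln1*, 413 ± 104 against 453 ± 47.0 for *Fbln2*, 221 ± 51.5 against 155 ± 55.7 for *Mfap4*, 412 ± 77.8 against 369 ± 138 for *Loxl1* and 591 ± 77.7 against 614 ± 237 for *Loxl2* (FibCtrl against FibΔZeb1, SD, n = 3 each). Of the 3 further lists 0 genes were called.

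**Figure D4:**
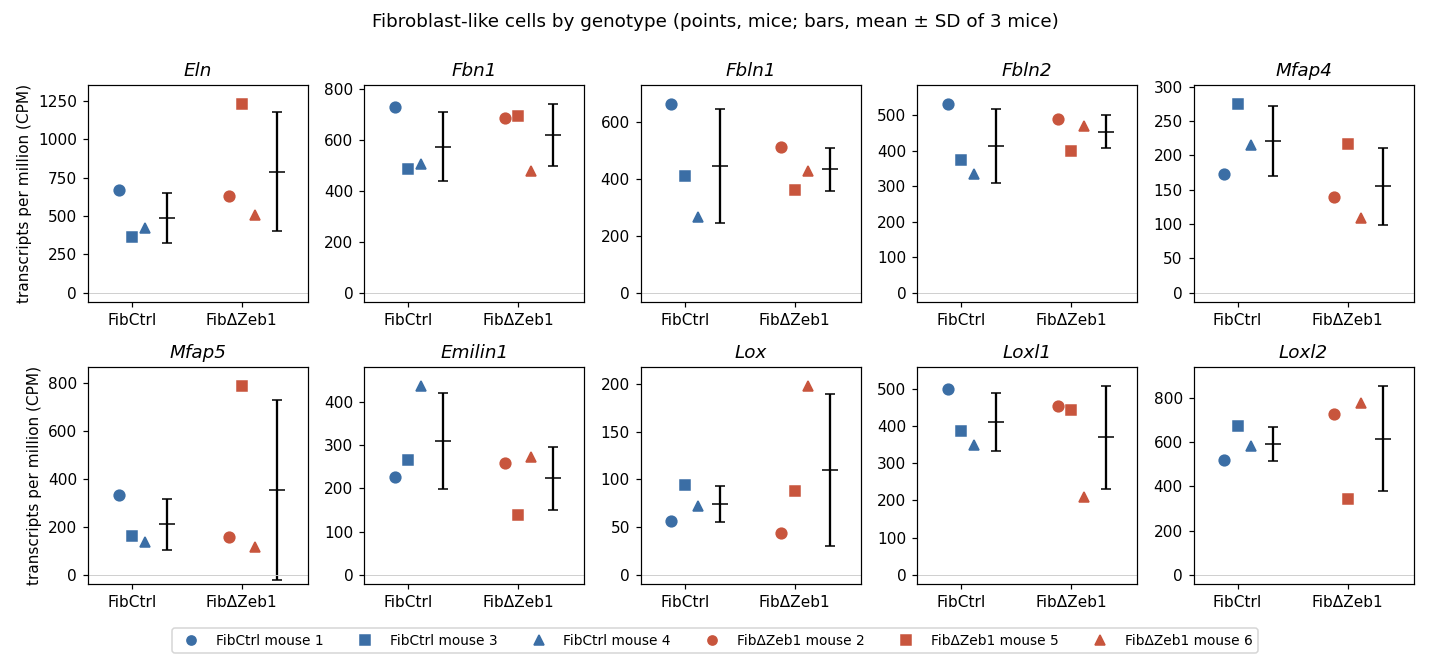
Level of each member (CPM) in the fibroblast-like cells of each mouse, by genotype, with the mean ± SD of 3 mice beside the points. The genotypes overlap for every member, mouse 5 is the highest for *Eln* and *Mfap5* (1229 and 786 CPM), and the lower end of the *Mfap5* SD bar passes below 0.

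The make-up of the fibroblast-like cells differed from mouse to mouse, and levels in this sum reflect how many cells of each subtype it holds as well as the RNA per cell, which cannot be told apart in it. iCAF-like cells made up 43.4%, 31.3% and 10.4% in FibCtrl mice 1, 3 and 4 and 20.9%, 49.0% and 15.4% in FibΔZeb1 mice 2, 5 and 6. Telocyte-like cells, low in *Mfap5* and *Eln*, made up 15.4%, 43.8% and 70.8% and 29.9%, 6.73% and 53.9% in the same order. Mouse 5 thus had the highest share of iCAF-like and the lowest of telocyte-like cells, and a further 38.5% of its cells were *Myoc*/*Angptl7* fibroblasts, against 0 to 2.94% in the other mice. The part of this make-up in the genotype values was not tested. Mice 3 and 6 had 16 and 13 fibroblast-like cells, against 48 to 136 in the others.

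**Figure D5:**
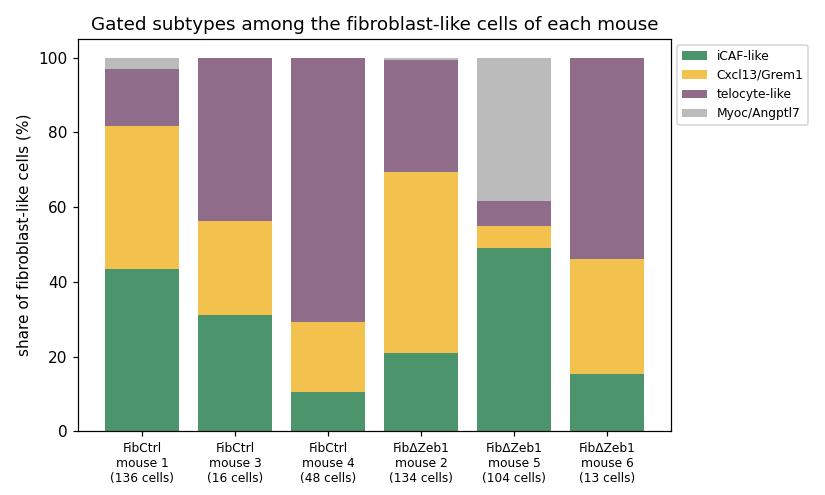
Share of each subtype among the fibroblast-like cells of each mouse (percent, stacked to 100), with the number of cells. Mouse 5 is the one with many *Myoc*/*Angptl7* fibroblasts (38.5%), and telocyte-like cells range from 6.73% (mouse 5) to 70.8% (mouse 4).

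Within single classes, compared with at least 5 cells per mouse (chosen after the data were seen, since too few mice had 10), 0 of 10 members were called in iCAF-like cells of 3 FibCtrl and 2 FibΔZeb1 mice, and their log2 fold changes lay between -0.47 and 0.40. In *Cxcl13*/*Grem1* fibroblasts of 2 against 2 mice 0 of 10 were called (-1.40 to 0.43, with 1 at an unadjusted p under 0.05). In telocyte-like cells of 3 against 3 mice 0 of the 9 that passed the filter were called (-1.06 to 0.92), and in pericyte-like cells 0 of 2. Of all genes edgeR called 0 in each of these fits, with 37 to 131 at an unadjusted p under 0.05.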

How the data were processed

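Transcript counts of 10 members in 6 mice were examined. Per the study's methods, the CEL-Seq2-based libraries were mapped with BWA to the GRCm38 transcriptome, and the authors deposited transcript counts (barcode counts corrected for collisions, hence not whole, a form of estimated count) per gene and well, and raw barcode counts. The labels also list Cell Ranger 2.1.1, whose role for these plates is not given in the sources used here. Wells with 100 to 6000 genes and under 10% transcripts of genes marked as mitochondrial were kept, and wells with more than 1 *Ptprc* or *Epcam* transcript left out. A cell joined the class with the highest mean scaled marker score above 0.3, and fibroblast classes needed 5 of 8 fibroblast markers; no member was a marker. This gate was set after marker and member levels had been seen. The members and lists were chosen with earlier results of these data known.

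Counts were summed per mouse and class (at least 10 cells), rounded, and tested with edgeR 4.0.16 (R 4.3.3; quasi-likelihood test, TMM factors, filterByExpr, Benjamini-Hochberg over all genes), with the mouse as a block between classes, since classes of a plate come from the same animal. The SE given with an edgeR log2 fold change is its absolute value divided by the square root of the test's F statistic. Genotypes were compared over 3 mice each, and single values with exact permutation tests. Each mouse is 1 plate, so plate and mouse cannot be told apart. Spike-ins (7.85% to 18.6% of transcripts) were left out. Alternatives were DESeq2 1.42.0, RLE factors, no filter, barcode counts, other cell limits, thinning, no block, and leaving out each mouse. Counts were also simulated for the same sums and genes, with the same fixed spread for every gene and no mouse or plate effect. There 61.9% and 89.6% of log2 changes of 2 and 3 were recovered in the pericyte fit. The shares were 67.0% and 88.4% in the iCAF fit and 88.3% and 98.9% in the genotype fit. Of the unchanged genes 5, 3 and 12 were called, in the same order of fits. Changes as small as those of the members between genotypes were not simulated. All members were named in each comparison, as were up to 4 called genes per list. Gene positions are from GENCODE M21 (GRCm38). Floors of 3 transcripts cover counting error only.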

Additional observations from a re-analysis of the deposited data

How the results depend on the processing

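Between pericyte-like and fibroblast-like cells, each of the 8 members called was called under every alternative that tested it. With cells thinned to 1000 barcodes the count fell to 6, since *Lox* and *Mfap4* were not tested there. *Fbn1* was not called in any of 23 alternatives, where its log2 fold change ran from -1.12 to -0.0286 (lowest edgeR adjusted p = 0.0537). The iCAF-like and telocyte-like counts of 8 and 9 fell to 3 and 5 with cells thinned to 1000 barcodes, where fewer transcripts are summed. The calls lost with thinning were those of *Eln*, *Fbn1*, *Fbln1*, *Fbln2* and *Emilin1* in iCAF-like and of *Fbn1*, *Fbln2*, *Mfap4* and *Emilin1* in telocyte-like cells. DESeq2 lost those of *Eln* and *Loxl2* in iCAF-like and of *Fbn1* and *Mfap4* in telocyte-like cells. *Mfap5* was called in all 21 alternatives in both. The *Cxcl13*/*Grem1* count of 1 became 3 with no filter on low counts, 2 with *Ptprc* and *Epcam* wells kept and 2 with the mt- limit. The direct iCAF-like count of 1 became 2 with the mt- limit, 3 with at least 5 cells and 0 with thinning, and ranged from 1 to 3 with a mouse left out (at either cell minimum); the cause was not tested. Without mouse 1 or mouse 2 the subtype fit could be made with at least 5 cells but not with 10.

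Values that turned sign were not called in either direction. With *Ptprc* and *Epcam* wells kept these were *Fbn1* 0.095 and *Emilin1* 0.024 in *Cxcl13*/*Grem1* cells, *Lox* -0.032 in telocyte-like cells, *Loxl2* -0.0058 by genotype and *Eln* -0.0501 in the direct contrast. With the mt- limit they were *Fbn1* 0.076 and *Emilin1* 0.1, *Lox* -0.19, *Mfap4* 0.14, *Loxl1* 0.083 and *Loxl2* -0.084 by genotype, and *Eln* -0.051. With thinning they were *Fbn1* 0.076 and *Mfap4* -0.16 in *Cxcl13*/*Grem1* cells, *Fbn1* -0.079, *Fbln1* 0.11, *Mfap4* 0.32 and *Loxl2* -0.22 by genotype, and *Eln* -0.14. *Mfap4* came to -0.16 in iCAF-like cells with at least 5 cells. Without the replicate block, *Fbn1* came to 0.031 in *Cxcl13*/*Grem1* cells, *Loxl2* was no longer called in iCAF-like cells (adjusted p = 0.0571), and the counts of members stayed within 1.5 times those with it.

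Each mouse was left out both with at least 10 cells and, between classes, with at least 5 cells, which changes 2 choices at once. Over both, values ran from -0.69 to 0.014 for *Loxl2* in pericyte-like cells (from -0.4 to 0.014 with at least 10 cells). The changes of sign between the subtypes that follow came from fits with at least 5 cells. In iCAF-like cells they ran from -0.72 to 0.70 for *Mfap4* and from -0.12 to 0.44 for *Lox*. In *Cxcl13*/*Grem1* cells they ran from -0.32 to 0.12 for *Emilin1* and from -0.57 to 0.19 for *Lox*, which in telocyte-like cells ran from -0.27 to 0.25. By genotype they ran from -0.36 to 0.43 for *Fbln1*, -0.31 to 0.16 for *Loxl1*, -0.098 to 0.33 for *Loxl2*, -0.0085 to 0.40 for *Fbn1*, -0.052 to 0.42 for *Fbln2*, -0.66 to 1.38 for *Mfap5* and -0.076 to 0.94 for *Lox*.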

Other observations

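Outside the classes compared, the 45 *Myoc*/*Angptl7* fibroblasts held the members at 250.7 CPM for *Eln*, 598 CPM for *Fbn1*, 495 CPM for *Fbln2* and 465 CPM for *Mfap5* when pooled, and a *Mfap5* transcript was found in 80% of these cells. Of the 45 cells, 40 came from mouse 5, whose own levels were 169.5, 326.9, 322.9 and 476.5 CPM in the same order. The 4 such cells of mouse 1 held 42.1 *Eln* and 106.5 *Fbn1* transcripts, against 42.0 and 81.0 in mouse 5. The pooled values thus depend on a few cells of other mice and were put to no test.

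The 42 cells of the smooth muscle gate, led by skeletal muscle genes, held *Eln* at 266 CPM in mouse 1, 902 CPM in mouse 2 and 213 CPM in mouse 5, each with at least 10 such cells. Pooled, *Eln* came to 607 CPM, and to 237 CPM without mouse 2. The 69 epithelial cells held *Eln* at 55.5 CPM and *Fbn1* at 20.6 CPM when pooled.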
